A study of Mus musculus with 4 samples.

Results

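The genes described here are the D-type cyclins Ccnd1, Ccnd2 and Ccnd3, their kinases Cdk4 and Cdk6, the kinase inhibitors Cdkn1a, Cdkn1b, Cdkn2b and Cdkn2c, and the retinoblastoma gene Rb1. They were chosen by symbol for their place in the decision of a cell to leave G1 phase, a rule that uses no measured value. Earlier results of these data were known when these genes and the wider lists below were chosen. Their shares of calls are therefore not those of blindly chosen sets. All 10 were listed in each of the 4 libraries, among 17575 genes listed in all, and all 10 passed the filter on low counts that left 13773 genes to test. RNA-seq had been made from chondrocytes, the cells of cartilage, which collagenase had freed from the rib cartilage of C57/Bl6 mice aged 10 days and which were plated before RNA was taken. 2 libraries were labelled wild type, with no further allele given for them. The other 2 were labelled knockout and came, by the series description, from mice that carry the transgene Col2Cre(Tg) together with the alleles Kdm6a(fl/fl) and Kdm6b(fl/fl). In such mice Cre recombinase, driven by a collagen II promoter, acts on loxP-flanked Kdm6a and Kdm6b in cells that use that promoter. The labels do not tie a library to an animal. The p-values below therefore reflect how far these libraries differ from each other, which may be technical spread.

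D cyclins are the part of the cell cycle machinery that answers to growth signals. They bind and switch on CDK4 and CDK6, which phosphorylate the RB protein, and RB then lets go of the E2F factors that turn on genes of DNA replication. Inhibitors of the INK4 family (Cdkn2b, Cdkn2c) keep CDK4 and CDK6 from the cyclins, and those of the CIP/KIP family (Cdkn1a, Cdkn1b) act on cyclin-bound kinases. In the growth plate this circuit sets how long chondrocytes divide before they enlarge, and Cdkn1a rises in growth arrest. KDM6A and KDM6B remove a repressive methyl mark from histone H3, and KDM6B is known for acting on the locus that holds Cdkn2b and its neighbour Cdkn2a.

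Library totals were 31178248 to 32332044 estimated counts. Of the targeted genes Kdm6b was 2.56-fold and Kdm6a 1.83-fold lower in knockout libraries (edgeR adjusted p = 0.00174 and 0.00489). The 11 chondrocyte markers found in the files summed to 45903 and 44495 counts scaled to library size (CPM) in wild type and to 62978 and 60441 CPM in knockout, with Col2a1, Acan and Sox9 present in every library. Most of this sum was Col2a1 in every library. In edgeR 4 of the 11 rose and 1 fell at an adjusted p under 0.05, beside 3.62% and 5.63% of all tested genes. Fibroblast markers summed to 1012 and 1429 CPM in wild type and 580 and 784 CPM in knockout, endothelial markers to 113 and 105 against 83.1 and 69.0 CPM, macrophage markers to 52.6 and 49.6 against 33.4 and 33.6 CPM, and erythroid markers to 27.2 and 33.9 against 13.1 and 15.1 CPM. Osteoblast markers, which share Col1a1 with the fibroblast list, summed to 105 and 147 against 66.4 and 106 CPM. Skeletal muscle markers stood at 10.1 and 9.60 CPM in wild type and at 6.53 and 25.1 CPM in knockout, the high value being that of knockout replicate 2. C1qa, a defining marker of macrophages, and Bglap2, a defining marker of osteoblasts, were at 0 in at least 1 library. In edgeR 3 of 7 tested fibroblast markers, 3 of 6 endothelial and 3 of 7 erythroid markers fell. So did 1 of 7 macrophage, 1 of 7 osteoblast and 0 of 5 muscle markers. In all of these other lists 0 rose, to be read beside the same shares of all tested genes. The part of these cells in the results below was not tested.

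Of the 10 genes 1 rose, Cdk4, and 2 fell, Ccnd2 and Ccnd1, at an adjusted p under 0.05 in edgeR's quasi-likelihood test, and 7 did not pass. Across all tested genes 9.25% passed, 3.62% upward and 5.63% downward. The median log2 fold change of the 10, knockout minus wild type, was -0.23, where that of all tested genes was 0.0044. In 7 of the 10 the groups did not overlap in CPM, 2 with knockout above (30.9% of all tested genes) and 5 with knockout below (30.7%), against 61.7% of all tested genes for both directions, so separation by itself sets nothing apart at this number of libraries. DESeq2 called 4 of the 10 (12.0% of all tested genes) and limma on log2(FPKM + 1) called 3 (8.69%). With 2 libraries against 2, an exact permutation test of a single value cannot go below p = 0.333. In bulk RNA fewer cells of a type and less RNA per cell cannot be told apart. Without wild type replicate 1, and likewise without wild type replicate 2, no gene of the 10 and none of the whole table passed in edgeR (3442 and 2587 genes had an unadjusted p under 0.05), whereas DESeq2 still called 567 and 422 genes then.

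**Figure D1:**
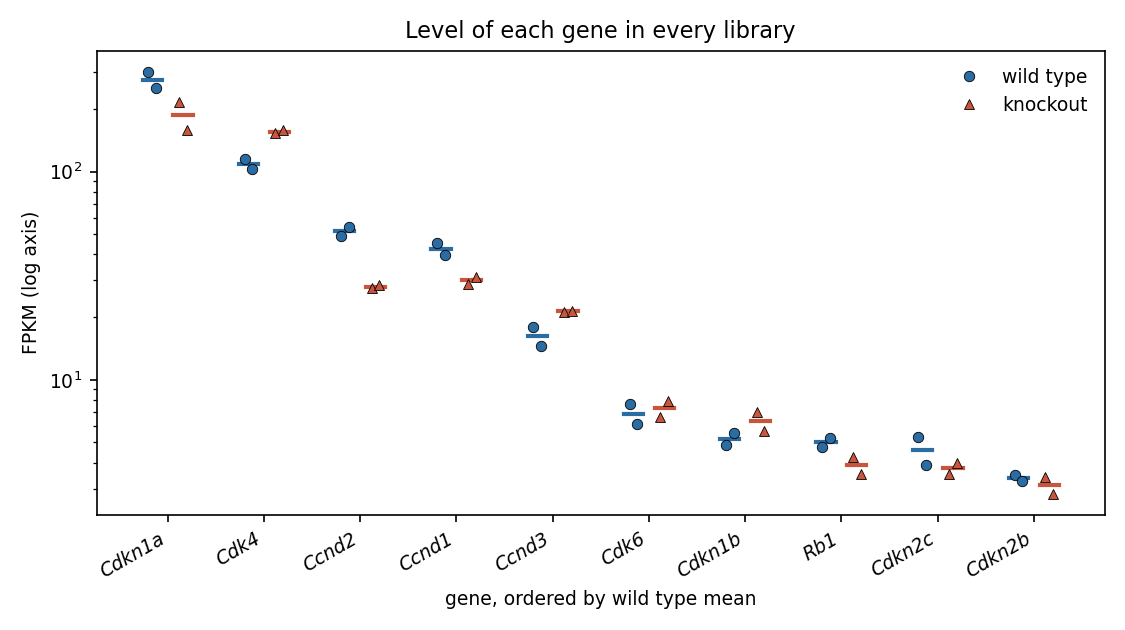
FPKM on a log axis for each of the 10 genes, ordered by the wild type mean, with a circle for each wild type library, a triangle for each knockout library and a bar at the mean of 2. The triangles lie below the circles for Ccnd2 (27.63 and 28.46 against 49.00 and 54.12) and above them for Cdk4 (153.35 and 157.60 against 114.34 and 102.74).

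Levels between genes were compared on the deposited FPKM, which are per length of transcript. In wild type chondrocytes the order was Cdkn1a at 276 ± 36 FPKM (SD, n = 2 for this and every mean below), Cdk4 at 109 ± 8.2, Ccnd2 at 51.6 ± 3.6, Ccnd1 at 42.5 ± 3.8, Ccnd3 at 16.2 ± 2.3 and Cdk6 at 6.88 ± 1.0 FPKM, followed by Cdkn1b at 5.21 ± 0.52, Rb1 at 5.01 ± 0.33, Cdkn2c at 4.61 ± 1.0 and Cdkn2b at 3.38 ± 0.16 FPKM. Neighbours in that order from Cdk6 to Cdkn2c were not separated beyond their spread, except that both Cdk6 values exceeded both of Cdkn1b. Cdkn1a was the 218th most abundant of the 17575 listed genes in wild type and Cdk4 the 578th, while Cdkn2b was the 8591st.

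Ccnd2 encodes cyclin D2, a partner of CDK4 and CDK6 that is also tied to proliferation of granulosa and beta cells. It measured 49.00 and 54.12 FPKM in the wild type libraries and 27.63 and 28.46 FPKM in the knockout libraries. The groups did not overlap, and the closest pair across groups still differed 1.74-fold in CPM. Ccnd2 fell 1.89-fold (log2 fold change -0.92, SE 0.086, edgeR adjusted p = 0.0038), the smallest adjusted p of the 10 and the 85th smallest p of all tested genes. In DESeq2 it passed with any 1 library left out. In the authors' deposited table its log2 fold change was -0.90 with an adjusted p of 6.58e-16.

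Ccnd1 encodes cyclin D1, the D cyclin best known from growth plate chondrocytes and a target of mitogen signalling. Its FPKM were 45.19 and 39.84 in wild type and 28.98 and 31.17 in knockout, with both knockout libraries under both wild type libraries. It fell 1.45-fold (log2 fold change -0.53, SE 0.084, edgeR adjusted p = 0.0164). Without wild type replicate 1 the adjusted p from DESeq2 was 0.0631, with a log2 fold change of -0.46. In the authors' deposited table the log2 fold change was -0.53 with an adjusted p of 3.69e-05.

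Ccnd3 encodes cyclin D3, the third member, which many differentiated cells keep. Its values were 17.85 and 14.55 FPKM in wild type and 21.12 and 21.50 FPKM in knockout, so both knockout libraries were higher, but the wild type libraries differed 1.20-fold from each other in CPM. The log2 fold change of 0.36 (SE 0.10) did not pass in edgeR (adjusted p = 0.078) or in DESeq2 (adjusted p = 0.0709). Ccnd3 was the only gene of the 10 whose estimated counts were not whole in the libraries (1122.36 and 899.96 in wild type, 1355.77 and 1375.93 in knockout), so part of its reads were shared out between entries. A pseudogene, Ccnd3-ps, stands in the GENCODE annotation.

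The 3 D cyclins together summed to 112.0 and 108.5 FPKM in wild type and to 77.73 and 81.13 FPKM in knockout, a mean 1.39-fold lower. Their make-up, taken from the same values, differed between groups. Ccnd2 held 43.7% and 49.9% of the total in wild type and 35.5% and 35.1% in knockout. Ccnd3 held 15.9% and 13.4% in wild type and 27.2% and 26.5% in knockout. The share of Ccnd1 overlapped between groups, at 40.3% and 36.7% in wild type and 37.3% and 38.4% in knockout, although on CPM it did not (34.96% and 30.65% against 35.29% and 36.34%). Ccnd2 stood above Ccnd1 in both wild type libraries, with ratios of 1.08 and 1.36, and below it in both knockout libraries, with ratios of 0.953 and 0.913. This change of order holds on FPKM only: on CPM, which takes no account of length, the ratio stayed above 1 in every library, at 1.65 and 2.07 in wild type and 1.45 and 1.39 in knockout. The ratio of Ccnd2 to Ccnd3 was 2.75 and 3.72 in wild type and 1.31 and 1.32 in knockout. These are values per library, with no test. The shares and ratios combine the values of Ccnd2 and Ccnd1, which fell, with those of Ccnd3, which did not pass. They add no separate result.

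**Figure D2:**
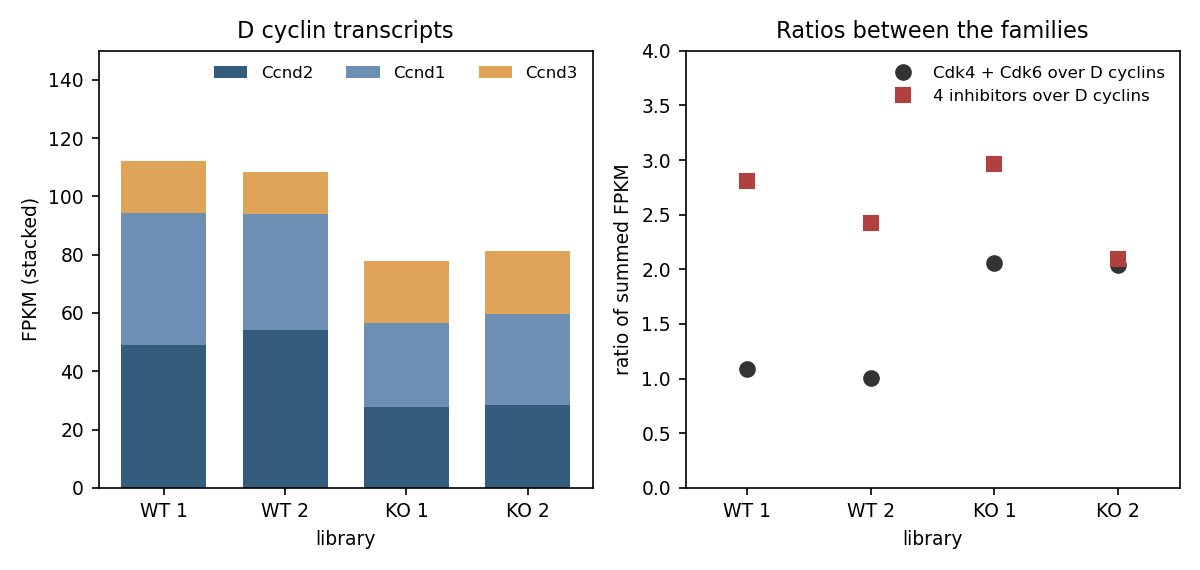
Left, FPKM of Ccnd2, Ccnd1 and Ccnd3 stacked for each library, with totals of 112.0 and 108.5 in wild type and 77.73 and 81.13 in knockout. Right, for each library the ratio of summed FPKM of Cdk4 and Cdk6 to that of the D cyclins (circles, 1.088 and 1.003 in wild type, 2.059 and 2.040 in knockout) and of the 4 inhibitors to the D cyclins (squares, which overlap between groups).

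Cdk4 encodes the cyclin D-dependent kinase that had by far the higher FPKM of the 2 in these cells. It measured 114.34 and 102.74 FPKM in wild type and 153.35 and 157.60 FPKM in knockout. Both knockout libraries were above both wild type libraries, the closest pair by 1.32-fold in CPM. Cdk4 rose 1.398-fold (log2 fold change 0.48, SE 0.076, edgeR adjusted p = 0.0163), and in DESeq2 without wild type replicate 2 the adjusted p was 0.0992. In the authors' deposited table its log2 fold change was 0.48 with an adjusted p of 3.54e-05. In the GENCODE annotation of GRCm38 31.2% of the exonic bases of Cdk4 also lie in exons of Tspan31, a membrane protein gene on the opposite strand. Tspan31 was a neighbour that rose too, with 64.2 ± 2.0 CPM in wild type libraries against 79.6 ± 2.1 CPM (edgeR adjusted p = 0.0451, log2 fold change 0.31, SE 0.071). How counting treated strand is not known, so reads of the shared stretch cannot be assigned by strand. Estimated counts of Cdk4 were whole in every library (4875 and 4318 in wild type, 6688 and 6851 in knockout). Unlike those of Ccnd3, they show no sign of reads shared out between entries. The length behind the FPKM of Cdk4 was 1365 bases, where its annotated exons cover 2053. Whether the 641 bases shared with Tspan31 lie within that length was not tested.

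The start region of Cdk4 is shown because it is the gene of the 10 that rose and its sequence carries a repeated element. The window below runs from 250 bases before to 50 bases after the RefSeq start, at chr10:127063285-127063584 on the plus strand of GRCm38.p6, and capitals mark each match to CACGTG, the E-box letters that MYC and related factors bind. The letters read the same on both strands.
Cdk4: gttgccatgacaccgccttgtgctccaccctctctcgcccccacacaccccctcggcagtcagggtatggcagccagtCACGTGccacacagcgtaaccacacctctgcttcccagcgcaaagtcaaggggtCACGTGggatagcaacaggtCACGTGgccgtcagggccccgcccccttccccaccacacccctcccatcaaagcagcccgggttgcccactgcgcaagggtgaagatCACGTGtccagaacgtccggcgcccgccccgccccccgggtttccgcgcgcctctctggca
4 matches began 172, 118, 98 and 11 bases before the start. At least 1 match was found in 7.15% of the 32851 windows of the same length in the table, and at least 4 in 0.0244% of them, or 8 windows. A match is a description of the letters and not evidence of binding. Myc itself measured 139.85 and 137.51 FPKM in wild type and 121.00 and 125.60 FPKM in knockout and did not pass (log2 fold change -0.21, SE 0.070, edgeR adjusted p = 0.116).

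Cdk6 encodes the second kinase. Its values were 7.61 and 6.14 FPKM in wild type and 6.66 and 7.94 FPKM in knockout, and the groups overlapped. The log2 fold change was 0.05 (SE 0.14, edgeR adjusted p = 0.838), and its sign changed with the library left out. Cdk4 made up 93.8% and 94.4% of the FPKM of both kinases in wild type and 95.8% and 95.2% in knockout. The length behind these FPKM was 2470 bases for Cdk6 and 1365 for Cdk4. In the GENCODE annotation their exons cover 11525 and 2053 bases, and what this does to the comparison of the 2 kinases was not tested. Summed kinase FPKM were 1.088 and 1.003 times those of the D cyclins in wild type and 2.059 and 2.040 times in knockout. This ratio was not tested. It combines the values of Cdk4, which rose, with those of Ccnd2 and Ccnd1, which fell, so it adds no separate result.

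Rb1 encodes RB, the substrate of these kinases. It measured 4.77 and 5.24 FPKM in wild type and 4.27 and 3.51 FPKM in knockout, with both knockout libraries lower. The log2 fold change of -0.40 (SE 0.13) did not pass (edgeR adjusted p = 0.0996), except that without knockout replicate 1 the edgeR adjusted p was 0.0492, at a log2 fold change of -0.55. Counts of Rb1 were 529 to 764 per library.

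Cdkn1a encodes p21, an inhibitor of CDK2 complexes that p53 and growth arrest signals induce. At 301.06 and 250.73 FPKM in wild type and 216.54 and 157.55 FPKM in knockout it was the highest of the 10 in every library except knockout replicate 2, where Cdk4 at 157.60 FPKM stood level with it. Both knockout libraries were lower than both wild type libraries, but they differed 1.37-fold from each other in CPM, the widest gap between replicates among the 10. For comparison, the median ratio between knockout replicates over genes averaging at least 1 CPM was 1.07. The log2 fold change was -0.59 (SE 0.16) and did not pass in edgeR (adjusted p = 0.0656). DESeq2 called the same counts (log2 fold change -0.60, SE 0.16, adjusted p = 0.00297), where 12.0% of all tested genes passed. In the authors' deposited table the adjusted p was 0.00427 at a log2 fold change of -0.58. Without knockout replicate 1 the edgeR log2 fold change was -0.84 (adjusted p = 0.00244), and without knockout replicate 2 it was -0.38 (adjusted p = 0.0945), so the size rests on which knockout library is used.

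RefSeq places 2 starts for Cdkn1a. The window of the upstream start is shown because p53 is the best known regulator of this gene and its targets are described below. It lies at chr17:29090729-29091028 on the plus strand of GRCm38.p6, and capitals mark CATG followed after any 6 bases by a second CATG, the paired core of the element that p53 binds, which reads the same on both strands.
Cdkn1a: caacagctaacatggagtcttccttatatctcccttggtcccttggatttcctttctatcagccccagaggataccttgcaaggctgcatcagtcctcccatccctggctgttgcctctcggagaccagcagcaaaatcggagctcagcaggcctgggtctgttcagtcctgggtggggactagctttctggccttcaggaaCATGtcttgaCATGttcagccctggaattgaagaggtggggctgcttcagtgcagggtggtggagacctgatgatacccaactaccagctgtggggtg
The match began 48 bases before that start. This spacing of letters was found in 0.712% of all 32851 windows, and in no other window of the genes described here, that of the second Cdkn1a start included. It describes the letters and is not evidence of binding, and a role of p53 in these libraries was not tested. Windows were found for 7 of the 10 genes. Ccnd1, Ccnd2 and Rb1 had no entry.

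Cdkn1b encodes p27, the inhibitor that holds resting cells. It measured 4.84 and 5.57 FPKM in wild type and 7.02 and 5.65 FPKM in knockout, and on the CPM scale, at 11.6 and 13.7 against 16.7 and 13.4, the groups overlapped. The log2 fold change was 0.25 (SE 0.15, edgeR adjusted p = 0.32). Cdkn2b, which encodes p15, measured 3.49 and 3.26 FPKM in wild type and 3.41 and 2.84 FPKM in knockout (log2 fold change -0.15, SE 0.17, edgeR adjusted p = 0.611). It rested on 126 to 152 counts per library, the fewest of the 10. Cdkn2c, which encodes p18, measured 5.32 and 3.90 FPKM in wild type and 3.51 and 4.0 FPKM in knockout (log2 fold change -0.31, SE 0.17, edgeR adjusted p = 0.278). Its groups overlapped in FPKM and were 1.02-fold apart at the closest pair in CPM. Cdkn2a, which neighbours Cdkn2b and is not among the 10, had 4 counts in wild type replicate 1, was not listed in wild type replicate 2, and had 2 and 3 counts in knockout, too few to test.

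Cdkn1a made up 95.7% and 95.2% of the FPKM of the 4 inhibitors in wild type and 94.0% and 92.7% in knockout. The share of Cdkn1b was 1.54% and 2.11% in wild type and 3.05% and 3.32% in knockout. Its total is mostly Cdkn1a, and Cdkn1b itself did not pass, so this share adds no separate result. Summed inhibitor FPKM were 2.81 and 2.43 times those of the D cyclins in wild type and 2.97 and 2.10 times in knockout. On this ratio the groups overlapped, in contrast to the ratio of kinases to D cyclins, although the difference between the 2 ratios was not tested.

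**Figure D3:**
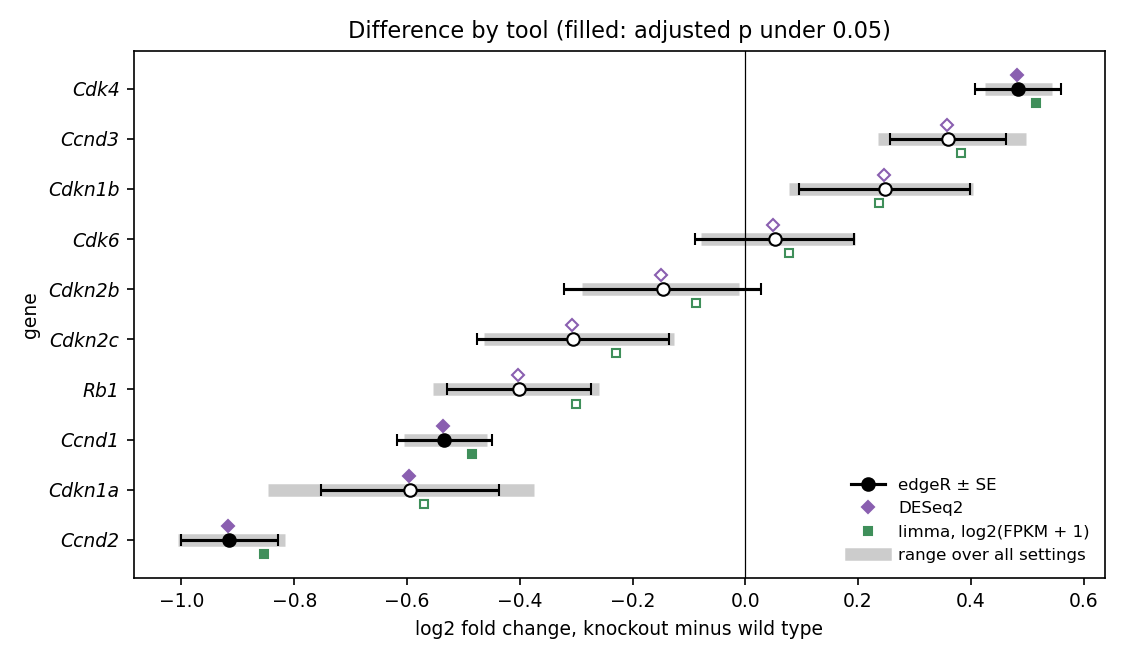
Log2 fold change of each gene, knockout minus wild type, by edgeR with its standard error (circles), DESeq2 (diamonds) and limma on log2(FPKM + 1) (squares), filled where the adjusted p is under 0.05. Grey bars span the main value and its 17 alternatives and cross 0 only for Cdk6, and Cdkn1a is filled for DESeq2 alone.

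The authors' deposited table had an adjusted p under 0.05 for 4 of the 10, Ccnd1, Ccnd2, Cdk4 and Cdkn1a, where 8.52% of its 17529 genes did. It carries its own mark of up or down for 69 and 208 genes, all of them changed at least 2-fold there, and none of the 10 has that mark.

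Exons of other genes overlap most of these genes on the opposite strand in the GENCODE annotation. For Ccnd1 21.9% of exonic bases are shared with LTO1, listed in the files as Oraov1, with 11.3 ± 1.5 CPM against 12.9 ± 0.42 CPM in knockout. For Ccnd3 14.8% are shared with Bysl, at 99.2 ± 2.3 and 96.5 ± 4.6 CPM. Bysl was thus more abundant in CPM than Ccnd3. For Rb1 the share was 2.26% with Rcbtb2, and for Ccnd2, Cdk6 and Cdkn1a the shares of 5.54%, 0.954% and 10% belonged to genes without a protein name. Cdkn1b, Cdkn2b and Cdkn2c had none. Of the 38 nearest tested neighbours, up to 2 on each side of every gene, 2 rose, Tspan31 beside Cdk4 and Ppil1 near Cdkn1a, and 0 fell, against 3.62% and 5.63% of all tested genes. All 4 neighbours of Ccnd2 (D6Wsu163e, Tigar, Parp11 and Tspan11) and all 4 of Ccnd1 (Ano1, Oraov1, Tpcn2 and Mrgprf) did not pass.

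Wider lists of the same circuit were then read in the same fit. Over 10 lists with 135 tested genes 18 passed, 7 upward and 11 downward, or 13.3%, beside 9.25% of all tested genes. Without wild type replicate 1 or 2 none of these passed in edgeR, and 9 and 5 did in DESeq2. Among 4 tested inhibitors and pocket proteins outside the 10 none passed in edgeR (1 had an unadjusted p under 0.05, as had 29.2% of all tested genes). Rbl1, which encodes the RB relative p107, differed by 0.35 on the log2 scale (edgeR adjusted p = 0.171, SE 0.14) and Rbl2, which encodes p130, by 0.15 (edgeR adjusted p = 0.364, SE 0.10). None of 10 E2F and DP genes passed in edgeR, with 1 at an unadjusted p under 0.05. Tfdp2, a partner of E2F factors, measured 2.73 ± 0.064 and 3.60 ± 0.25 FPKM (edgeR adjusted p = 0.0627) and E2f6, a repressive E2F, 16.5 ± 0.80 and 14.9 ± 0.55 FPKM (edgeR adjusted p = 0.173).

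Downstream of RB, 5 of 20 tested S phase genes that E2F factors are known to drive rose, 0 fell and 15 did not pass, with a median log2 fold change of 0.29. Of all tested genes 3.62% rose and 5.63% fell, and their median was 0.0044. Mcm6, a subunit of the replicative helicase, rose from 11.39 and 14.94 FPKM in wild type to 30.37 and 33.41 FPKM in knockout, 2.36-fold (edgeR adjusted p = 0.00771). Mcm5 and Mcm7, subunits of the same helicase, rose 1.45-fold and 1.28-fold, and Dut, which clears dUTP from the nucleotide pool, 1.30-fold. Of 9 tested genes around cyclin E, cyclin A and CDK2, Ccne1 rose from 3.47 and 2.90 to 4.99 and 5.06 FPKM (1.54-fold, edgeR adjusted p = 0.0431). Ccne1 encodes cyclin E1, which takes over from the D cyclins late in G1. In the same list Wee1, whose kinase restrains CDKs, fell 1.34-fold from 8.65 and 8.02 to 6.60 and 6.19 FPKM (edgeR adjusted p = 0.0369). None of 12 tested G2 and M phase genes passed in edgeR, nor had any an unadjusted p under 0.05 (29.2% of all tested genes had). Their median log2 fold change was -0.18. Plk1, a mitotic kinase, measured 2.05 ± 0.20 and 1.54 ± 0.16 FPKM (edgeR adjusted p = 0.172), and Aurkb, another, 0.425 ± 0.12 and 0.820 ± 0.37 FPKM (edgeR adjusted p = 0.218).

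Upstream of the D cyclins, 0 of 15 tested transcription factors that mitogens induce or that act on D cyclin genes rose and 4 fell, with a median log2 fold change of -0.21, where 3.62% of all tested genes rose and 5.63% fell around a median of 0.0044. Jun, an AP-1 subunit, fell from 73.53 and 66.43 to 38.89 and 37.63 FPKM (1.87-fold, edgeR adjusted p = 0.00269). Fosl1, which encodes the AP-1 subunit FRA1, fell 1.80-fold, and Lef1 and Tcf7, which encode nuclear partners of beta-catenin, fell 1.71-fold and 1.54-fold. Mycn and Mycl had too few counts to test.

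Of 18 tested genes of p53 and its targets other than Cdkn1a, 0 rose, 3 fell and 15 did not pass, with a median log2 fold change of -0.18. The shares over all tested genes were 3.62% rising and 5.63% falling, with a median of 0.0044. Plk2, a kinase of the polo family, fell from 197.44 and 227.01 to 140.67 and 136.35 FPKM (1.57-fold, edgeR adjusted p = 0.014), the antiproliferative gene Btg2 fell 1.75-fold (edgeR adjusted p = 0.00935) and Sesn2, a sestrin of the stress response, 1.59-fold (edgeR adjusted p = 0.014). Btg2 is also an immediate early gene. Trp53 itself differed by 0.18 on the log2 scale (edgeR adjusted p = 0.274, SE 0.098) and Mdm2, a direct p53 target, -0.33 (SE 0.093, edgeR adjusted p = 0.0769). Among 16 tested regulators known to act on inhibitor genes 1 rose and 3 fell, to be read against the same shares. Foxo4, a forkhead factor that can induce Cdkn1b, rose 1.35-fold from 32.46 and 30.94 to 44.64 and 43.08 FPKM. Foxo1 and Foxo3, forkhead factors of the same list, were lower in both knockout libraries but did not pass in edgeR. The log2 fold change of Foxo1 was -0.40 (SE 0.099, edgeR adjusted p = 0.0547, DESeq2 adjusted p = 0.0139). That of Foxo3 was -0.22 (SE 0.13, edgeR adjusted p = 0.282, DESeq2 adjusted p = 0.42). Klf6, Runx2 and Sp1, factors that can act on Cdkn1a, fell 1.47-fold, 1.49-fold and 1.23-fold.

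None of 15 tested genes that set the stability of D cyclins and p27 passed in edgeR (3 had an unadjusted p under 0.05). Over all tested genes 9.25% passed and 29.2% had an unadjusted p under 0.05, so few calls would be looked for in lists of this size. Skp2, the F-box protein that targets p27, measured 6.29 ± 0.30 and 8.27 ± 0.22 FPKM (edgeR adjusted p = 0.0654), and Ddb1, an adaptor of cullin ligases, 136 ± 2.9 and 163 ± 4.1 FPKM (edgeR adjusted p = 0.0963). None of 16 other partners of D cyclins, CDK4/6 and RB passed in edgeR either (2 had an unadjusted p under 0.05). Of these, Kdm5a, a histone demethylase that binds RB, measured 7.08 ± 0.59 and 6.16 ± 0.0071 FPKM, and Hdac1, a histone deacetylase, 29.6 ± 2.8 and 35.2 ± 2.3 FPKM.

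**Figure D4:**
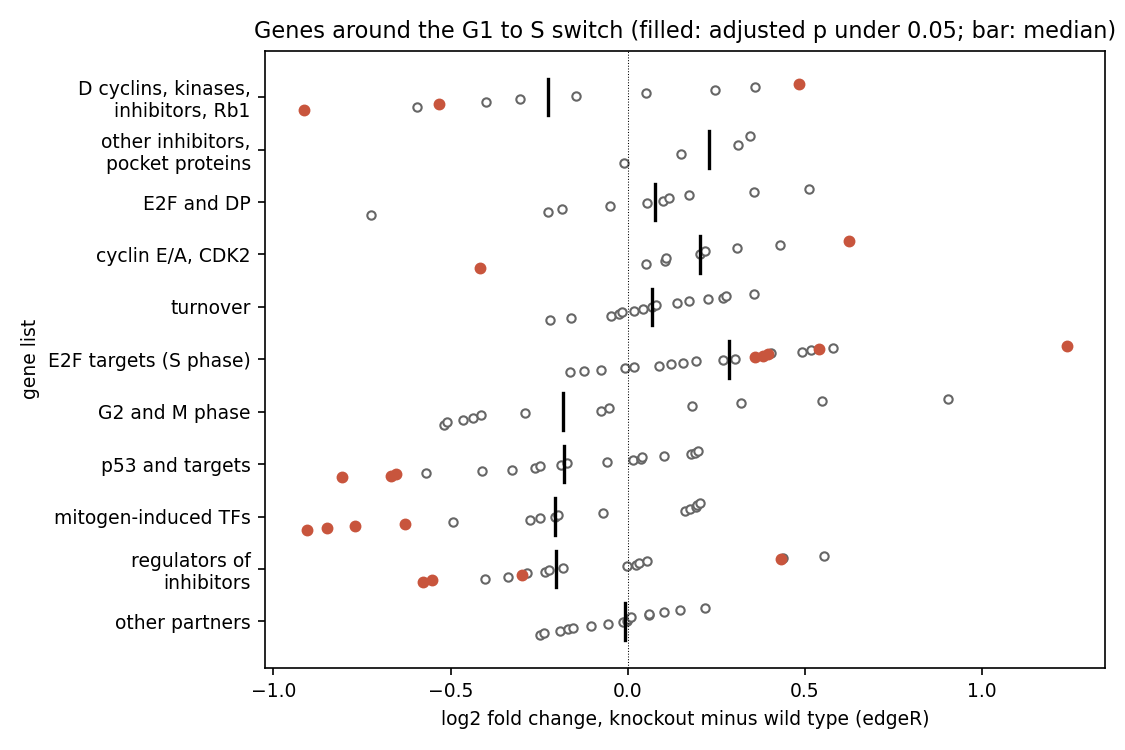
Log2 fold change by edgeR, knockout minus wild type, for every tested gene of 11 lists, with a bar at each list's median and filled points for genes with an adjusted p under 0.05. Filled points lie to the right for S phase genes, led by Mcm6, and to the left for p53 targets. They also lie to the left for the list labelled mitogen-induced TFs, which includes factors that act on D cyclin genes.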

How the data were processed

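Expression was analysed in 4 RNA-seq libraries of plated rib chondrocytes, 2 wild type and 2 knockout, grouped by their titles. The submitters' processing notes name Bowtie2 2.2.5 and mm9, a mouse genome build. The counting tool, the annotation release and any use of strand were not given in the sources used here. Per the file headers, each gene has an expected count, an FPKM value and a length in every library's deposited table. The authors also deposited a DESeq2 comparison with group means on a normalized signal scale, log2 fold changes and p-values. Genes absent from a library's table were set to 0 for it.

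Expected counts were rounded and tested over all genes with edgeR 4.0.16 in R 4.3.3 (TMM, filterByExpr, quasi-likelihood F test), adjusted by Benjamini-Hochberg over 13773 genes, with calls at an adjusted p under 0.05. SE was taken as the size of the log2 fold change divided by the root of F, fold is from the fit, and CPM is TMM-scaled. Alternatives were DESeq2 1.42.0, limma 3.58.1 on log2(FPKM + 1) or log2(FPKM + 0.1) for genes with a mean of at least 0.5 FPKM or with no filter, other scalings, no filter on low counts, a replicate block, summing of 23 entries named by transcript with their genes, and each library left out, with DESeq2 as well as an alternative chosen after seeing the data. Depth leaves 126 to 18110 counts behind each value of the 10 genes. The fitting step was tested on simulated data.

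The genes, lists and tests were chosen with earlier results of these data known. All 10 genes are named, and from each wider list up to 4 genes with the smallest p-values that passed, or else the first 2 by p. Trp53, Mdm2, Myc, Mycn, Mycl, Cdkn2a, Foxo1, Foxo3, the marker genes and the neighbouring and overlapping genes were named outside that rule, after their values were seen. Dmp1, entered among the partners through an old name of Dmtf1, was dropped after its value was seen. The value of a marker gene is not reported here. Overlaps of exons come from GENCODE M21 and start windows from RefSeq, both on GRCm38, so no coordinate was joined to the mm9 counts.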

Additional observations from a re-analysis of the deposited data

How the results depend on the processing

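Ccnd2, Ccnd1 and Cdk4 kept their direction under all 17 alternatives and Cdkn1a, Ccnd3, Rb1, Cdkn1b, Cdkn2b and Cdkn2c did so too. Cdk6 changed sign in 4 of them, at log2 fold changes of -0.0719 in edgeR and -0.0784 in DESeq2 without wild type replicate 2 and of -0.0721 and -0.0785 without knockout replicate 2, and reached 0.20 without wild type replicate 1. Of the 10 genes, 0 rose and 0 fell in limma on log2(FPKM + 1) with no filter, where 0 of 17575 genes passed and 4107 had an unadjusted p under 0.05. With 1 library left out, 0 to 1 rose and 0 to 4 fell. Changed genes of the wider lists numbered 18 in the main fit, 9 with no filter on low counts, 0 in limma with no filter and 0 to 17 with 1 library left out. All changed genes numbered 1274, against 720, 0 and 0 to 1275 under the same settings. In DESeq2, without wild type replicate 1 or 2 or knockout replicate 1 or 2, 9, 5, 8 and 11 genes of the wider lists and 567, 422, 684 and 814 of all genes changed. In limma with the filter 47.8% of called genes fell, against 60.9% in edgeR. With the replicate number as a block 2 of the 10 rose (Cdk4 and Ccnd3), 3 fell (Cdkn1a was added), 31 genes of the wider lists changed and 2316 of all genes did. The labels give no shared animal or day for a number, so the block was not used in the main fit. Deviations of same-numbered libraries correlated across genes at Pearson's r = 0.139, which does not settle whether such libraries are paired. The share of Cdk4 among both kinases was 1.46 percentage points higher in knockout on FPKM and 2.46 on CPM, which takes no account of length. The cause of these changes was not tested.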
